A study of Homo sapiens with 16 samples.

Results

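The G2 and mitosis genes are 60 human genes whose products a cell needs between the end of DNA copying and its division. They were listed by gene symbol, with earlier results of these data already known. The list holds mitotic cyclins and kinases, spindle and kinetochore proteins, the chromosome passenger complex, and proteins of mitotic exit. All 60 had a probe set among the 11963 genes of the array, and all 60 passed the filter on low signals that left 8102 genes to test. They were measured in HepG2 cells, a human hepatoma line, after transfer of a gene by adenovirus. The groups were cells given the GPI-PLD virus and cultured for 12 h or for 6 h, and cells given the LacZ virus, which makes the bacterial enzyme beta-galactosidase, for 12 h or for 6 h. GPI-PLD is the phospholipase D that cuts glycosylphosphatidylinositol anchors, by which some proteins are held on the cell surface. Each group had 4 arrays, of 10 µg of total RNA each, so every group was given an adenovirus and cells without one are not analysed here. The promoter of the vectors and the virus dose are not given in the sources used here.

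Entry into mitosis is set by CDK1, a kinase that works only when bound to cyclin A or cyclin B. Most genes of this programme are transcribed late in the cell cycle, under a complex of MuvB proteins with B-Myb and FOXM1, and they are shut in resting cells by a related complex that reads a promoter element called the cell cycle homology region, often close to NF-Y boxes. After the chromosomes have attached to the spindle, a ubiquitin ligase, the anaphase promoting complex (APC/C), marks cyclins and the separase inhibitor securin for destruction, and the cell divides. HepG2 cells divide in culture, whereas hepatocytes of the adult liver rarely do.

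Promoter windows are shown first, because these genes share elements by which the programme is known to be transcribed together. The windows come from RefSeq (GRCh38.p14) and run from 250 bases before to 50 bases after a start, 300 bases each. Windows were at hand for 52 members. TPX2, BIRC5, FOXM1, BUB3, RACGAP1, AURKA, UBE2C and TTK are named only. Both strands were searched. For the cell cycle homology region the letters were TTTGAA, which reads TTCAAA on the other strand, and TTCGAA, which reads the same on both. For the NF-Y box they were CCAAT, which reads ATTGG on the other strand. For an E2F site they were TTTGGCGC or, as the alternative, TTTCCCGC. A match is a description of letters, not of a bound site. Windows follow for the 4 members with the largest mean fall among those with a window that fell in cells of both viruses. AURKA and BIRC5, which have no window here, fell more in the mean than TACC3 and PTTG1. The window of CDC27, an APC/C subunit gene, follows too, as its mean change was the smallest among members with a window. UBE2S, which changed next least among them, is not printed. They are written 5′ to 3′ on the strand of the gene, with matches in capitals.
CDCA8 (chr1:37692266-37692565, plus strand): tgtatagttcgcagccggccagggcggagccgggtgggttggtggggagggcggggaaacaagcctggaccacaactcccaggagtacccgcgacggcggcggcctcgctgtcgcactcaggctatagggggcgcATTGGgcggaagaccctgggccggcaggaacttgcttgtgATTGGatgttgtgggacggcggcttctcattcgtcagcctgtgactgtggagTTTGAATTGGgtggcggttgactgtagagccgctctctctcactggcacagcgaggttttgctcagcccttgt
CCNB1 (chr5:69166900-69167199, plus strand): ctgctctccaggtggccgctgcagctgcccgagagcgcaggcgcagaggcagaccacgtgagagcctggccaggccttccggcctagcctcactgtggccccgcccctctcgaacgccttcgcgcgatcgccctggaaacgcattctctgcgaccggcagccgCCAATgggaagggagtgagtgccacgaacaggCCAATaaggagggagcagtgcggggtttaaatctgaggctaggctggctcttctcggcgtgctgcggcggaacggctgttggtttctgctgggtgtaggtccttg
PTTG1 (chr5:160421605-160421904, plus strand): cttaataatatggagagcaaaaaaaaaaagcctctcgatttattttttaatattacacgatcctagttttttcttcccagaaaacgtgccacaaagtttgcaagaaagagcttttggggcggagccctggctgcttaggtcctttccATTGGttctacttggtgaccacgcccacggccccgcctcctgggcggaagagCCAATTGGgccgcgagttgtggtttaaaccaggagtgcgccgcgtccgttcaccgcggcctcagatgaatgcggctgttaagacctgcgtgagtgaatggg
TACC3 (chr4:1720381-1720680, plus strand): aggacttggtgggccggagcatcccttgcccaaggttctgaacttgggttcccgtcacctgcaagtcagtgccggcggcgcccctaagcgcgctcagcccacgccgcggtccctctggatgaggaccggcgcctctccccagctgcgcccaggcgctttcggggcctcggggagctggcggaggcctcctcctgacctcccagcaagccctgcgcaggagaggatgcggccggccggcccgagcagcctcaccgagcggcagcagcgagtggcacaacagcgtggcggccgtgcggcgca
CDC27 (chr17:47189246-47189545, minus strand): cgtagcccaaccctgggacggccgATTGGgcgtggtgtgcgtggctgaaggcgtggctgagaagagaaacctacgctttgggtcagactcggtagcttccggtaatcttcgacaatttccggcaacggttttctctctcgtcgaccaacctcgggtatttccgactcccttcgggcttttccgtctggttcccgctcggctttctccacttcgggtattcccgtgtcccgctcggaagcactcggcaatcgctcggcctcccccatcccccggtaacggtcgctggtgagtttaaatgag
In CDCA8 the region TTTGAA, from 23 to 18 bases before the start, overlaps an ATTGG by 1 letter, and 2 more NF-Y boxes lie before it. CCNB1 and PTTG1 hold 2 and 3 NF-Y boxes, of which those of PTTG1 nearest the start overlap, and none of the searched letters of the cell cycle homology region in these windows. TACC3, which fell in cells of both viruses too, holds none of the searched letters in its window. CDC27 holds 1 NF-Y box, 226 bases before its start. PTTG1 has 2 windows in the table, of which the first is printed.

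The cell cycle homology region was found in 39 of the 52 members with a window (75%), against 1109 of 6708 tested genes with one (16.5%). The NF-Y box was found in 43 members (82.7%), against 44.7% of tested genes, and both elements stood in 1 window for 33 members (63.5%), against 6.92%. The E2F letters were in 3 members (5.77%), against 4.68% of tested genes. Over all 27305 genes of the table, the shares were 19.5% for the homology region, 39.7% for the NF-Y box, 7.85% for both and 2.75% for E2F. In many members the homology region lay close to the start: 19 of 52 (36.5%) held it within the 40 bases before the start, against 2.03% of tested genes, a span that was chosen after the positions were seen. The stretches from 80 to 11 bases before the start are shown for the 8 members with 1 window whose homology region began from 31 to 28 bases before the start, to let the spacing be read.
CCNB2 (chr15:59105066-59105135, plus strand): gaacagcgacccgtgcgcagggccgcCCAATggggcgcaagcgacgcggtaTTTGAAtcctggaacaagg
CKS1B (chr1:154974601-154974670, plus strand): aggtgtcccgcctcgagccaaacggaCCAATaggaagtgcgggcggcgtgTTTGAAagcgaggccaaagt
CKS2 (chr9:89311115-89311184, plus strand): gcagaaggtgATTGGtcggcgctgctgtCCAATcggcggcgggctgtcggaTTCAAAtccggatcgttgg
PLK1 (chr16:23678809-23678878, plus strand): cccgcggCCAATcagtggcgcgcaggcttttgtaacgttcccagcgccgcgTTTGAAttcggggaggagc
ESPL1 (chr12:53268219-53268288, plus strand): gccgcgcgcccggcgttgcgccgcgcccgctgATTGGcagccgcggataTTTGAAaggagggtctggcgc
KIF11 (chr10:92593050-92593119, plus strand): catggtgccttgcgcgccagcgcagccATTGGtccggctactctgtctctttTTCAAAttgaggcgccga
HMMR (chr5:163460552-163460621, plus strand): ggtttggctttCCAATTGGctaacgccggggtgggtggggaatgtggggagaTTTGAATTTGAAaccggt
MKI67 (chr10:128126434-128126503, minus strand): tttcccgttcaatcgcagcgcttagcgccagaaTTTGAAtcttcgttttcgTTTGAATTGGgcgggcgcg
In 7 of these 8 stretches an NF-Y box precedes the homology region. In MKI67, which holds a further copy of the region upstream, an ATTGG overlaps the region, and in HMMR 2 copies of TTTGAA adjoin. All 8 genes had negative differences with time in both viruses. CCNB2 was called lower at 12 h in cells of both, HMMR, KIF11 and CKS2 in GPI-PLD cells, and CKS1B, PLK1, ESPL1 and MKI67 in neither, although the LacZ arrays of PLK1 and CKS1B did not overlap between the times. As a description, the 39 members with the homology region had a median log2 difference with time of -0.41 in GPI-PLD and -0.37 in LacZ cells, and the 13 without it -0.42 and -0.30. The 43 members with an NF-Y box had medians of -0.44 and -0.39, and the 9 without it -0.29 and -0.25. Called lower in both viruses were 9 of the 39 members with the homology region and 6 of the 13 without it. For the NF-Y box these were 14 of 43 with it and 1 of 9 without it, and over all genes tested the share was 1.9%.

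**Figure D1:**
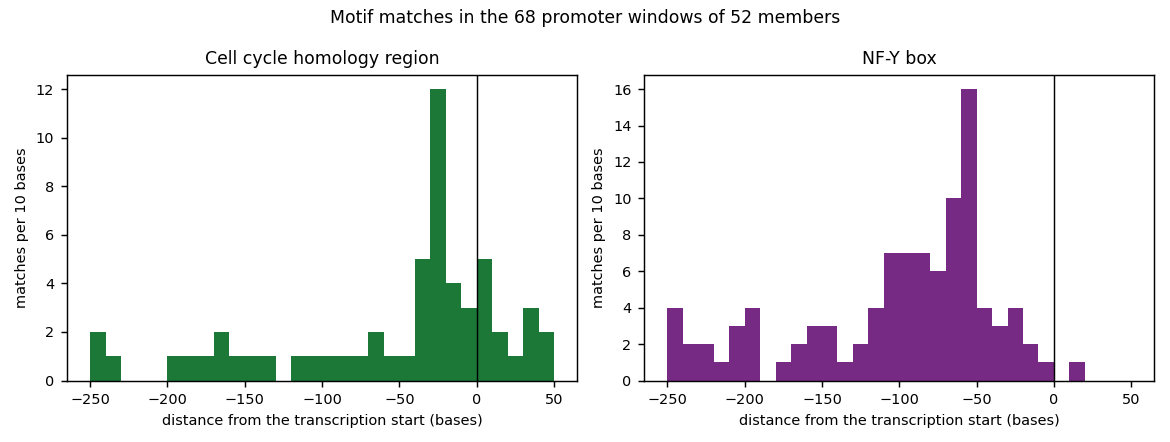
Positions of the letters of the cell cycle homology region (left) and of the NF-Y box (right) in the 68 promoter windows of 52 members, as matches per 10 bases against the distance from the transcription start in bases. Windows of 1 gene can overlap, so a match can be counted more than once. The homology region is most frequent in the 40 bases before the start, and the NF-Y box farther upstream.

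Array medians ran from 304.5 to 377.6. The GAPDH 3′ to 5′ signal ratio, a sign of RNA quality, averaged 0.974 ± 0.101 in GPI-PLD cells at 12 h and 0.951 ± 0.054 at 6 h, and 0.999 ± 0.061 in LacZ cells at 12 h and 0.914 ± 0.037 at 6 h (SD, n = 4 each). Its mean was thus higher at 12 h in cells of both viruses, by more in LacZ cells, and its part in the changes with time was not tested. The ACTB ratio ran from 1.104 to 1.771 over the 16 arrays. Arrays of GPI-PLD cells at 12 h agreed less with each other (mean log2 correlations of 0.937 to 0.939 within the group) than those of the other groups (0.948 to 0.958). Counts without replicates 2 and 4 of that group, which an earlier look at these data, not shown here, had found to stand apart, are given below. Their mean correlations within the group, 0.938 and 0.937, were close to the 0.939 of replicates 1 and 3. Hepatocyte markers were bright, with 10 of 10 measured passing the filter (mean ALB signal 85990, AFP 72930) and 0 called with time. Markers of fibroblasts (4 of 6 passed, highest COL1A1 at 773.5, LUM at 8.44) and endothelial cells (1 of 4 passed, highest PECAM1 at 286) were dim. Of 5 leukocyte markers on the array 2 passed, of which LYZ was bright (9632), while the defining gene PTPRC was at 111 and NKG7 at 17.8. None of these lists had a member called between the times. GPLD1, which encodes GPI-PLD, had overlapping arrays between the viruses at both times at each of its 5 probe sets, and the part of the gene in the virus is not named, so its signals do not check the labels.

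With time the mitotic genes were lower almost throughout. In GPI-PLD cells 59 of 60 members had a negative log2 difference (12 h minus 6 h, with a median of -0.43 and quartiles of -0.54 and -0.28), and 32 fell at an adjusted p under 0.05 while 0 rose. Over all 8102 genes tested the median was 0.01, 5.07% fell and 4.6% rose. In LacZ cells 59 of 60 members were negative as well (median -0.37, quartiles -0.53 and -0.24), and 23 fell while 0 rose, against 3.25% lower and 3.64% higher over all genes. The exceptions were BUB3 in GPI-PLD cells and CDC27 in LacZ cells. Every 12 h array stood below every 6 h array in 34 members in GPI-PLD cells (7.86% of all genes) and in 27 in LacZ cells (6.22%). Members lower in cells of both viruses numbered 19, against 1.9% of all genes, and in 15 members all 8 arrays at 12 h lay below all 8 at 6 h, against 2.09%. In bulk RNA, fewer cells in G2 and mitosis and less of these RNAs per cell cannot be told apart. The tests were limma fits of log2(signal + 62.7) over all genes, with errors of log2 differences given as standard errors and errors of signals as standard deviations (4 arrays per group).

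The shift was visible in single arrays. The median log2 signal of the members was 10.44 to 10.60 in GPI-PLD cells at 12 h, against 10.68 to 10.90 at 6 h, and 10.32 to 10.52 in LacZ cells at 12 h, against 10.70 to 10.87 at 6 h. The median of all tested genes stayed at 9.88 to 10.00 in the 16 arrays. With GPI-PLD 12 h replicates 2 and 4 left out together, 27 members fell in GPI-PLD cells, 24 in LacZ cells and 17 in both. The share of all genes in that setting is not given here. Of the calls, 12 of 32 in GPI-PLD and 6 of 23 in LacZ cells were lost when some single array was left out, and those of the members described are given with them.

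**Figure D2:**
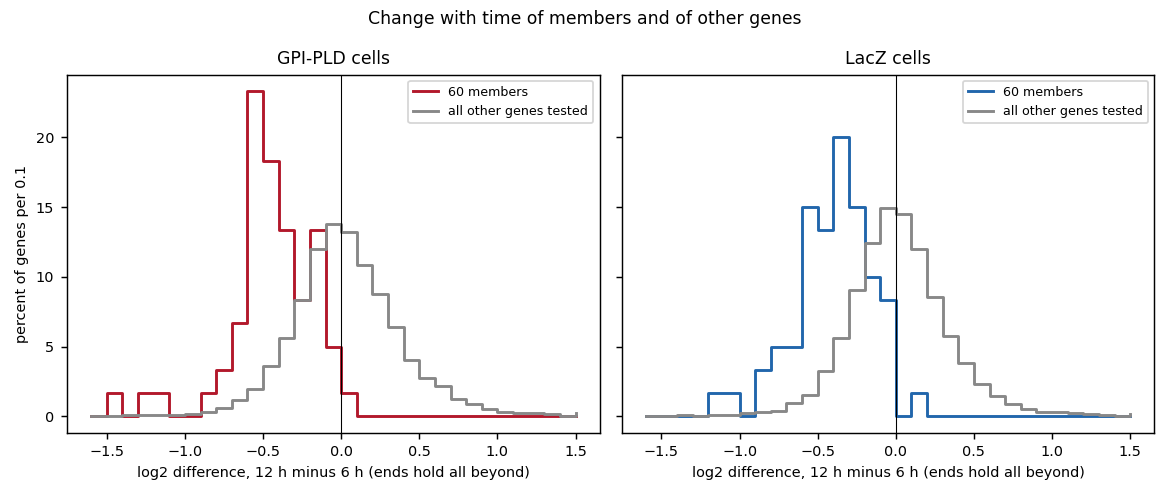
Log2 difference with time (12 h minus 6 h) of the 60 members (coloured) and of the 8042 other genes tested (grey), as percent of genes per step of 0.1, in GPI-PLD cells (left) and LacZ cells (right). The members' medians are -0.43 and -0.37, and the other genes centre near 0.

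**Figure D3:**
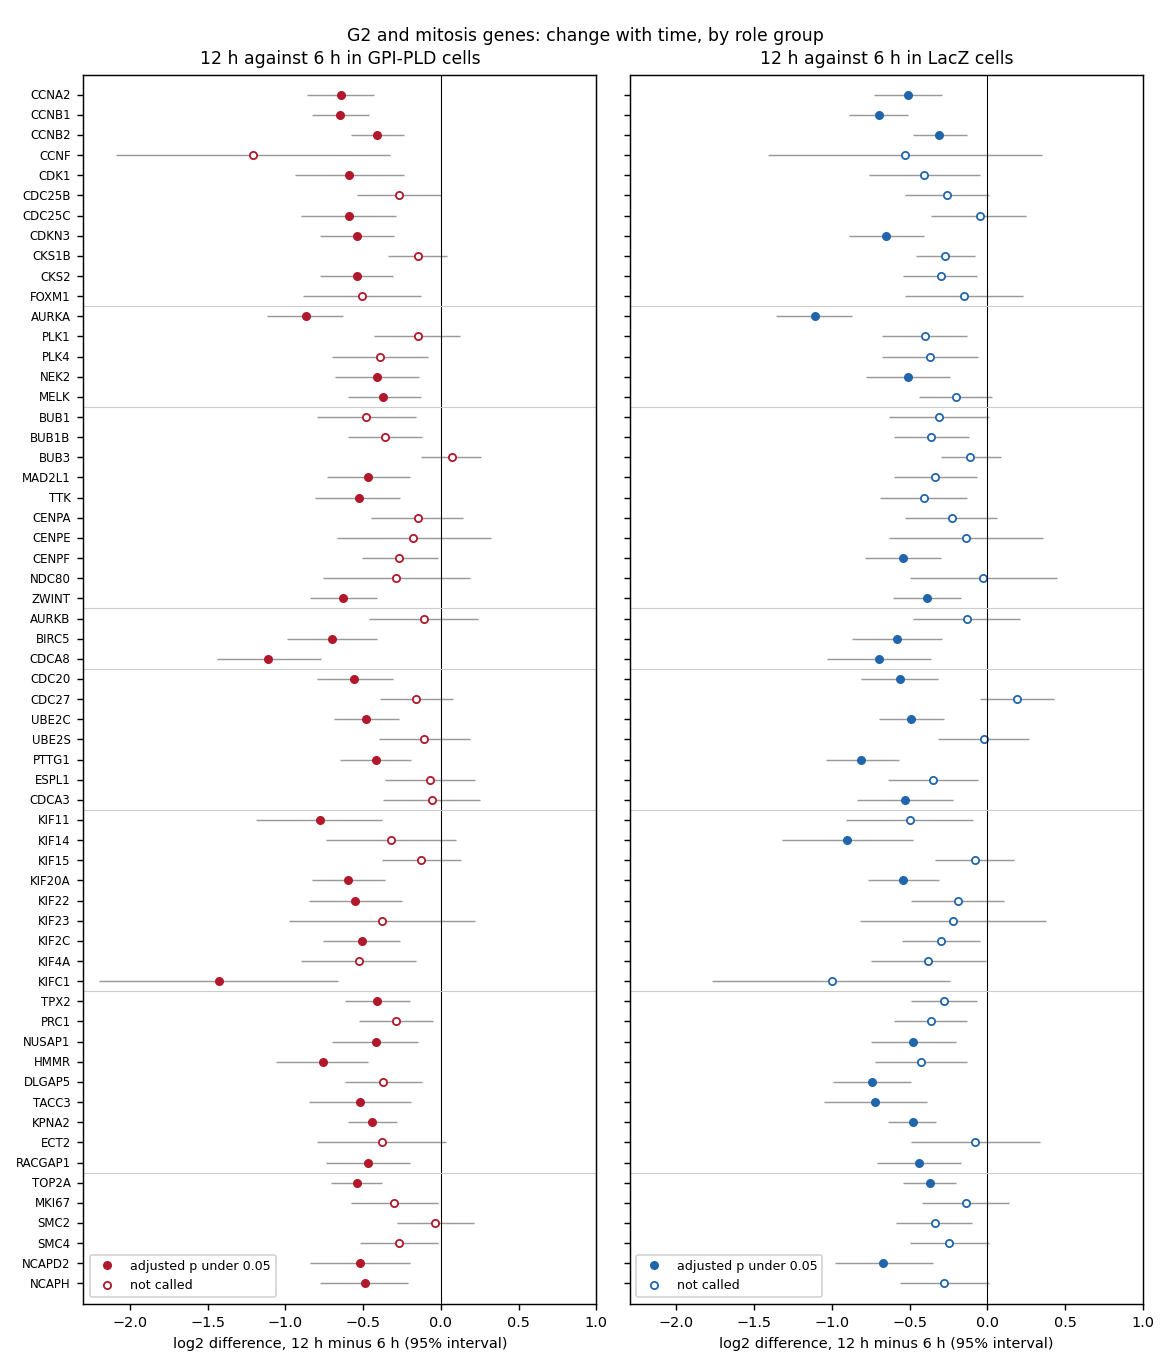
Log2 difference with time (12 h minus 6 h) of each member with its 95% interval, in GPI-PLD cells (left) and LacZ cells (right), in role groups parted by grey lines. Filled points had an adjusted p under 0.05: 32 in GPI-PLD cells and 23 in LacZ cells, all below 0.

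Among the cyclins, CDK1 and its regulators, 7 of 11 fell in GPI-PLD cells and 4 of 11 in LacZ cells. This count and those of the role groups below compare with 5.07% of all genes lower in GPI-PLD and 3.25% in LacZ cells. CCNB1, the cyclin B1 gene, had signals of 3534, 3944, 3370.3 and 3993 at 12 h with the GPI-PLD virus, against 5942, 5388, 5804 and 6189 at 6 h. Its LacZ signals were 3446, 3337, 3744 and 3896 at 12 h, against 5456, 5286, 6487 and 6459.6 at 6 h. The times did not overlap in either virus, and the log2 differences were -0.65 ± 0.09 (adjusted p 3.87e-05) and -0.70 ± 0.09 (1.39e-05), or 1.56-fold and 1.63-fold lower. CCNA2, which encodes the cyclin A of S phase and G2, had 2646, 2776, 2450.5 and 2719 at 12 h with the GPI-PLD virus, against 3619, 3868, 4391 and 4882 at 6 h. LacZ arrays of CCNA2 read 2882, 3086, 3052 and 2865 at 12 h, against 4261, 3504, 4853 and 4526 at 6 h. It fell in both, at -0.64 ± 0.10 (adjusted p 0.000206) and -0.51 ± 0.10 (0.00303), with no overlap of the times. CCNB2, the cyclin B2 gene, averaged 3440 ± 106 in GPI-PLD cells at 12 h and 4605 ± 176 at 6 h, and 3641 ± 132 in LacZ cells at 12 h and 4527 ± 428 at 6 h. Its log2 differences were -0.41 ± 0.08 (adjusted p 0.00179) and -0.31 ± 0.08 (0.0239), and the LacZ call was lost without LacZ 12 h replicate 3 or 4 or without LacZ 6 h replicate 1, 2 or 3 (giving an adjusted p of 0.051 to 0.0768). CDKN3, a phosphatase gene whose product acts on CDKs, fell in both as well (-0.54 ± 0.12, adjusted p 0.00357, and -0.65 ± 0.12, adjusted p 0.000704).

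CDK1 itself averaged 3246 ± 779 in GPI-PLD cells at 12 h and 4843 ± 581 at 6 h, with a log2 difference of -0.59 ± 0.17 (adjusted p 0.0297). In LacZ cells it averaged 3461 at 12 h and 4521 at 6 h (-0.41 ± 0.17, adjusted p 0.177). Of the 3 CDK1 probe sets the other 2 were negative in both viruses too, at -1.0 ± 0.17 and -0.52 ± 0.13 in GPI-PLD and at -0.36 ± 0.17 and -0.50 ± 0.13 in LacZ cells. In the limma fit over all probe sets both were called in GPI-PLD cells (adjusted p 0.00115 and 0.0285), and the last was called in LacZ cells (0.0416). The probe set used was not called in GPI-PLD cells in that fit (0.0576). Its GPI-PLD call in the fit over genes was lost without GPI-PLD 12 h replicate 1 or 3 or without GPI-PLD 6 h replicate 3 or 4 (giving an adjusted p of 0.0631 to 0.101). CDC25C, the phosphatase gene that frees CDK1 from its inhibition, had 781, 807, 786 and 902 at 12 h with the GPI-PLD virus, against 1253, 1132, 1207 and 1499 at 6 h. Its LacZ arrays read 1141, 955, 961 and 839 at 12 h, against 729, 1065, 1226 and 1075 at 6 h, with overlap. The log2 difference was -0.59 ± 0.15 in GPI-PLD cells (adjusted p 0.0109) and -0.05 ± 0.15 in LacZ cells (0.897). The GPI-PLD call was lost when the gene's probe sets were averaged (-0.47, adjusted p 0.194). A second, dimmer CDC25C probe set stood at -0.85 ± 0.28 in GPI-PLD and -0.39 ± 0.28 in LacZ cells. CKS2, which encodes a small protein bound to CDKs, fell in GPI-PLD cells (-0.54 ± 0.11, adjusted p 0.0025) and stood at -0.30 ± 0.11 in LacZ cells, while its paralog CKS1B stood at -0.15 ± 0.09 and -0.27 ± 0.09 (adjusted p 0.342 and 0.0791). In LacZ cells CKS2 was called without LacZ 12 h replicate 4 (giving an adjusted p of 0.0209), and CKS1B without GPI-PLD 12 h replicate 2 (giving an adjusted p of 0.0419).

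The members of the group not called at either virus included FOXM1, the transcription factor gene of the mitotic programme, at -0.51 ± 0.18 and -0.15 ± 0.18 (adjusted p 0.0843 and 0.724). CDC25B, a second CDC25 phosphatase gene, stood at -0.27 ± 0.13 and -0.26 ± 0.13. CCNF, which encodes the F-box cyclin, had the widest spread of the members. Its signals were 94.3, 147, 42.2 and 385 at 12 h with the GPI-PLD virus, against 454, 417, 363 and 352 at 6 h. In LacZ cells they were 36, 309, 343 and 273 at 12 h, against 297, 260.5, 387 and 354 at 6 h. The arrays overlapped in both, 1 array in each 12 h group lay apart, and the log2 differences of -1.21 ± 0.43 and -0.53 ± 0.43 did not pass (adjusted p 0.0782 and 0.548). The GPI-PLD difference passed without GPI-PLD 12 h replicate 4 or without LacZ 12 h replicate 1 (giving an adjusted p of 0.0177 to 0.0286).

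The mitotic kinase genes held the largest fall among the members in LacZ cells. AURKA encodes Aurora A, the kinase of centrosomes and spindle poles. Its signals were 4142, 5831, 4766 and 4919.7 at 12 h with the GPI-PLD virus, against 9862, 9743, 8518 and 7968 at 6 h. In LacZ cells they were 3894, 4909, 3929 and 5273 at 12 h, against 8125, 9908, 11200.2 and 9959.5 at 6 h. The highest array at 12 h lay well below the lowest at 6 h in both. The log2 differences were -0.87 ± 0.12 (adjusted p 2.18e-05), or 1.83-fold, and -1.11 ± 0.12 (6.9e-07), or 2.17-fold. A second bright AURKA probe set stood at -0.81 ± 0.10 and -0.61 ± 0.10, and a dim one stood at -0.69 ± 0.34 and 0.16 ± 0.34. NEK2, a centrosome kinase gene, fell in both (-0.41 ± 0.13, adjusted p 0.0448, and -0.51 ± 0.13, adjusted p 0.0154), but its GPI-PLD call lay at the threshold and was lost without GPI-PLD 12 h replicate 1, 2 or 3 or without GPI-PLD 6 h replicate 1, 2, 3 or 4 or without LacZ 12 h replicate 1, 3 or 4 or without LacZ 6 h replicate 1 or 2 (giving an adjusted p of 0.0513 to 0.132). MELK, a kinase gene of dividing cells, fell in GPI-PLD cells (-0.37 ± 0.11, adjusted p 0.0401), a call lost without GPI-PLD 12 h replicate 1, 3 or 4 or without GPI-PLD 6 h replicate 2, 3 or 4 (giving an adjusted p of 0.0629 to 0.119), and stood at -0.20 ± 0.11 in LacZ cells.

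PLK1, which encodes Polo-like kinase 1 of mitotic entry and the spindle, was among those not called. Its signals were 1109, 1703, 1399.7 and 1563 at 12 h with the GPI-PLD virus, against 1413, 1561, 1574 and 1843 at 6 h. In LacZ cells they were 977, 1161, 1310.3 and 1406 at 12 h, against 1614, 1593, 1608 and 1623 at 6 h, without overlap. The log2 differences were -0.15 ± 0.13 and -0.40 ± 0.13 (adjusted p 0.543 and 0.0723), and the LacZ one passed without GPI-PLD 12 h replicate 1 (giving an adjusted p of 0.0465). PLK4, the centriole duplication kinase gene, stood at -0.39 ± 0.15 and -0.37 ± 0.15.

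**Figure D4:**
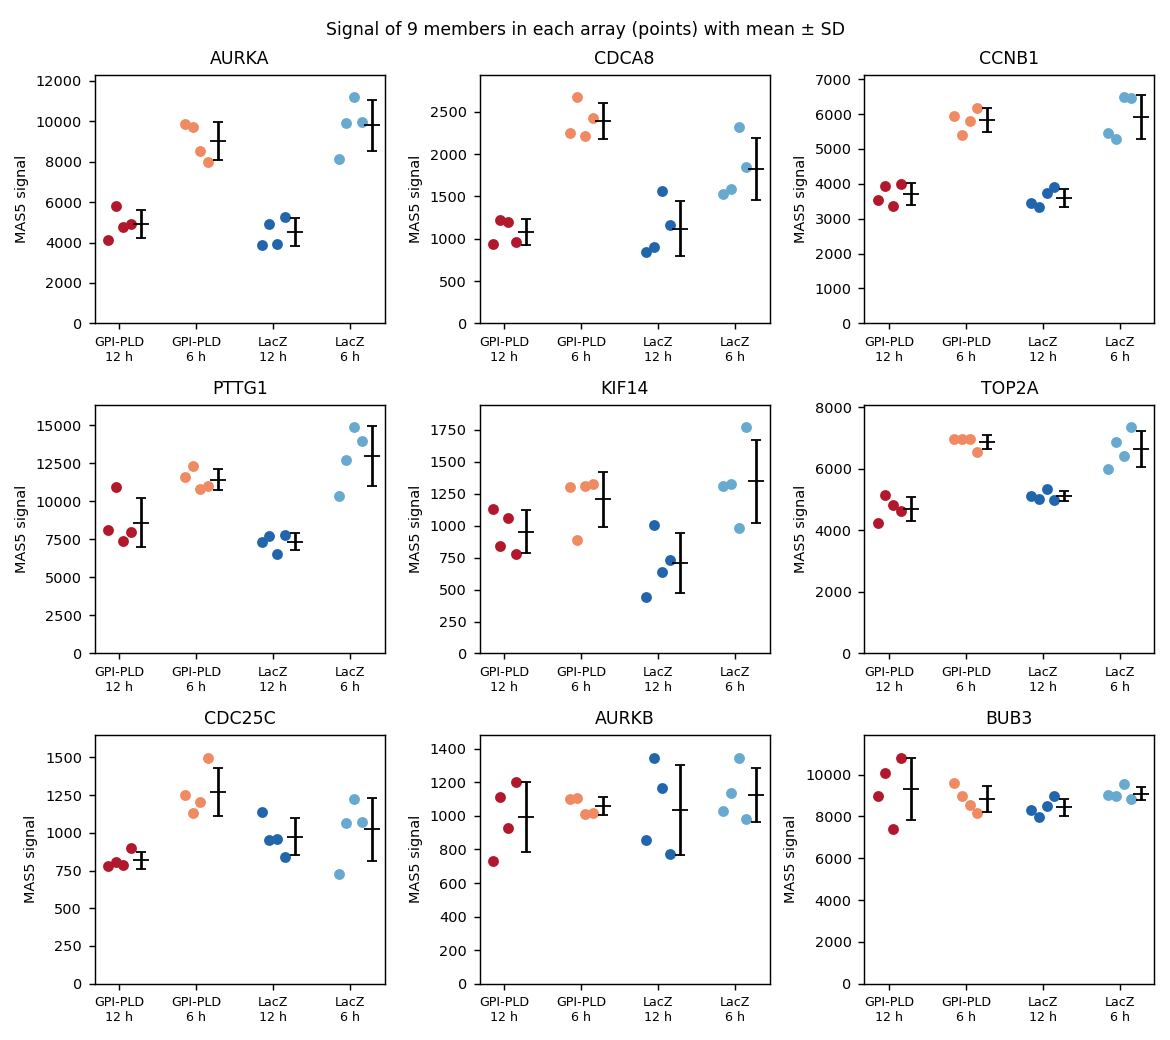
MAS5 signal of 9 members in each array (points) with mean and SD of 4 arrays (black), by group from left to right: GPI-PLD 12 h, GPI-PLD 6 h, LacZ 12 h, LacZ 6 h. AURKA, CCNB1 and TOP2A have all 12 h arrays below all 6 h arrays in both viruses, whereas AURKB and BUB3 overlap.

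In the chromosome passenger complex, which corrects faulty attachments and directs cytokinesis, 2 of 3 genes fell in cells of both viruses. CDCA8, the gene of its subunit borealin, had 943, 1221, 1202 and 959 at 12 h with the GPI-PLD virus, against 2253, 2675, 2215 and 2428 at 6 h. LacZ arrays of CDCA8 read 839.6, 906, 1561 and 1162 at 12 h, against 1530.3, 1593, 2327 and 1852 at 6 h. The GPI-PLD arrays did not overlap, the LacZ arrays did by a single array at each time, and the log2 differences were -1.11 ± 0.16 (adjusted p 5.64e-05) and -0.70 ± 0.16 (0.00795). BIRC5, which encodes survivin, had 1656, 2684, 2499 and 2238 at 12 h with the GPI-PLD virus, against 3320.2, 3872, 3966 and 3506 at 6 h. Its LacZ signals were 2112, 2335, 1927 and 2744 at 12 h, against 3080, 3522, 4289.7 and 2923 at 6 h. Neither overlapped, at -0.70 ± 0.14 (adjusted p 0.00197) and -0.58 ± 0.14 (0.0108), and the LacZ call was lost without LacZ 6 h replicate 3 (giving an adjusted p of 0.0533). The dimmer BIRC5 probe sets stood at -0.52 ± 0.18 and -0.39 ± 0.13 in GPI-PLD and at -0.34 ± 0.18 and -0.30 ± 0.13 in LacZ cells. They were negative throughout but not called over all probe sets in either virus. AURKB, the gene of the kinase of the same complex, had 729.9, 1111, 929 and 1203 at 12 h with the GPI-PLD virus, against 1099, 1109.9, 1009 and 1020.4 at 6 h. The LacZ arrays of AURKB gave 858, 1348, 1166 and 776 at 12 h, against 1031, 1138, 1346 and 981 at 6 h. The times overlapped in both, and the log2 differences of -0.11 ± 0.17 and -0.13 ± 0.17 did not pass (95% intervals -0.46 to 0.24 and -0.48 to 0.21).

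At the kinetochore, where chromosomes meet the spindle and the checkpoint holds anaphase back, 3 of 10 genes fell in GPI-PLD and 2 in LacZ cells. ZWINT, a gene of the outer kinetochore, had 3710.3, 3358, 4372 and 3445 at 12 h with the GPI-PLD virus, against 5326, 5529, 6136 and 6027 at 6 h. In LacZ cells it had 3931, 3968, 4163 and 4825 at 12 h, against 5600.2, 4536, 6157 and 5969 at 6 h. It fell in both (-0.63 ± 0.10, adjusted p 0.000286, and -0.39 ± 0.10, adjusted p 0.0235), without overlap in GPI-PLD cells and with overlap in LacZ cells, where it was no longer called without LacZ 12 h replicate 1, 2 or 3 or without LacZ 6 h replicate 1, 3 or 4 (giving an adjusted p of 0.0513 to 0.0834). The checkpoint genes TTK, which encodes the kinase MPS1, and MAD2L1, an inhibitor of APC/C, fell in GPI-PLD cells (-0.53 ± 0.13, adjusted p 0.0111, and -0.47 ± 0.13, adjusted p 0.0227). In LacZ cells they stood at -0.41 ± 0.13 and -0.34 ± 0.13 (adjusted p 0.0659 and 0.133), and the MAD2L1 call was lost without GPI-PLD 12 h replicate 2 or 4 or without GPI-PLD 6 h replicate 1 (giving an adjusted p of 0.0503 to 0.0839).

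CENPF, a gene of the corona of the kinetochore, fell in LacZ cells, with 1051, 1159, 1266 and 1238 at 12 h, against 1729, 1823, 1848 and 1577 at 6 h, without overlap (-0.54 ± 0.12, adjusted p 0.00508). The LacZ call was lost when its probe sets were averaged (-0.39, adjusted p 0.253). In GPI-PLD cells CENPF had 1755, 1517, 1356 and 1366 at 12 h, against 1467, 1926, 1963 and 1922 at 6 h (-0.27 ± 0.12, adjusted p 0.175). The checkpoint genes BUB1 and BUB1B stood close to the threshold in GPI-PLD cells, at -0.48 ± 0.15 and -0.36 ± 0.12 (adjusted p 0.0535 and 0.0533). BUB1 passed without GPI-PLD 12 h replicate 4 or without LacZ 12 h replicate 2 (giving an adjusted p of 0.00217 to 0.0474), and BUB1B without GPI-PLD 12 h replicate 1 or without LacZ 6 h replicate 1 (giving an adjusted p of 0.0451 to 0.0488). In LacZ cells they stood at -0.31 ± 0.15 and -0.36 ± 0.12, and BUB1B passed there without GPI-PLD 12 h replicate 2 or without LacZ 6 h replicate 1 (giving an adjusted p of 0.0303 to 0.048). The centromere histone gene CENPA, the motor gene CENPE and NDC80, which encodes the microtubule anchor of the kinetochore, differed by -0.29 to -0.03 over both viruses, with adjusted p of at least 0.394.

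BUB3, a checkpoint gene whose protein also binds chromatin outside mitosis, was the exception in GPI-PLD cells. Its signals were 8969, 10098, 7407 and 10818 at 12 h with the GPI-PLD virus, against 9619.6, 8981, 8524 and 8160.2 at 6 h. In LacZ cells they were 8293, 7996, 8516 and 8972 at 12 h, against 9011, 9002, 9544 and 8829 at 6 h. The arrays overlapped in both, at 0.07 ± 0.09 and -0.11 ± 0.09 (adjusted p 0.725 and 0.591). The other 3 probe sets of BUB3 in GPI-PLD cells stood at -0.24 ± 0.11, -0.34 ± 0.11 and -0.22 ± 0.10, so its sign rested on the probe set used.

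Of the genes of mitotic exit and chromatid separation, 3 of 7 fell in GPI-PLD and 4 in LacZ cells. PTTG1 encodes securin, the inhibitor of separase that APC/C destroys at anaphase. It had 8114, 10928, 7377 and 7964 at 12 h with the GPI-PLD virus, against 11576, 12293, 10781 and 11020.2 at 6 h. LacZ arrays of PTTG1 read 7289, 7744, 6551 and 7793 at 12 h, against 10348, 12716, 14849.6 and 13971 at 6 h. The GPI-PLD arrays overlapped through 1 array at 12 h and the LacZ arrays did not, with log2 differences of -0.42 ± 0.11 (adjusted p 0.0173) and -0.81 ± 0.11 (3.71e-05). Its GPI-PLD call was lost without GPI-PLD 12 h replicate 3 or 4 or without GPI-PLD 6 h replicate 2 (giving an adjusted p of 0.0528 to 0.0637). CDC20, the activator gene of APC/C in mitosis, averaged 1905 ± 368 in GPI-PLD cells at 12 h and 2801 ± 247 at 6 h, and 1798 ± 125 in LacZ cells at 12 h and 2685 ± 223 at 6 h. It fell in both, at -0.56 ± 0.12 (adjusted p 0.0031) and -0.56 ± 0.12 (0.00372), without overlap. UBE2C, the gene of the enzyme that starts ubiquitin chains on APC/C substrates, fell in GPI-PLD cells (-0.48 ± 0.10, adjusted p 0.00329) and in LacZ cells (-0.49 ± 0.10, adjusted p 0.00371), whereas UBE2S, whose enzyme extends those chains, stood at -0.11 ± 0.14 and -0.02 ± 0.14.

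CDCA3, which encodes a trigger of mitotic entry, fell in LacZ cells, with 1237, 889, 1302 and 1342 at 12 h, against 1598, 1592, 1983 and 1762 at 6 h (-0.53 ± 0.15, adjusted p 0.0321). In GPI-PLD cells it had 1679, 1736, 1292 and 1248 at 12 h, against 1535, 1950.4, 1482 and 1265 at 6 h, with overlap (-0.06 ± 0.15, adjusted p 0.858). The LacZ call was lost without LacZ 12 h replicate 1 or 2 or without LacZ 6 h replicate 3 or 4 (giving an adjusted p of 0.0547 to 0.141). ESPL1, the separase gene, was not called (-0.07 ± 0.14 and -0.35 ± 0.14). CDC27, the APC/C subunit gene shown above, had 2115, 2021, 2012 and 2429 at 12 h with the GPI-PLD virus, against 2411, 2385, 2698 and 2104 at 6 h. Its LacZ signals were 2508, 1926, 2619.6 and 2248 at 12 h, against 2194, 2177, 1723 and 1998 at 6 h. It was the member with a positive difference in LacZ cells (0.19 ± 0.11, adjusted p 0.376) and stood at -0.16 ± 0.11 in GPI-PLD cells, with overlap in both.

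Kinesins move chromosomes and slide spindle microtubules, and 5 of 9 of their genes fell in GPI-PLD cells and 2 in LacZ cells. KIFC1, a minus-end motor gene of the spindle poles, had 184, 432, 202 and 481 at 12 h with the GPI-PLD virus, against 829, 987, 841 and 1032 at 6 h. The LacZ arrays of KIFC1 gave 159, 368, 162 and 721 at 12 h, against 303, 733, 942 and 872 at 6 h. The GPI-PLD arrays did not overlap, whereas the LacZ arrays did. Its log2 difference of -1.43 ± 0.37 was the most negative of the members in GPI-PLD cells (adjusted p 0.0151), and it stood at -1.0 ± 0.37 in LacZ cells (0.114). The GPI-PLD call was lost without GPI-PLD 12 h replicate 1 or 3 (giving an adjusted p of 0.0543 to 0.0595), and in LacZ cells KIFC1 passed without LacZ 12 h replicate 4 or without LacZ 6 h replicate 1 (giving an adjusted p of 0.0166 to 0.0235). KIF11, which encodes the motor Eg5 that pushes the poles apart, had 592, 468, 509 and 323 at 12 h with the GPI-PLD virus, against 955, 882, 739 and 810.4 at 6 h. LacZ arrays of KIF11 read 707, 365, 581 and 715 at 12 h, against 783, 859, 1011 and 729.9 at 6 h. Neither overlapped, at -0.78 ± 0.20 (adjusted p 0.0114) and -0.50 ± 0.20 (0.142), and the GPI-PLD call was lost when replicates 2 and 4 of GPI-PLD 12 h were left out together (adjusted p 0.136).

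KIF20A, a motor gene of cytokinesis, was the kinesin gene lower in both (-0.60 ± 0.11, adjusted p 0.00101, and -0.54 ± 0.11, adjusted p 0.00334), with all 8 arrays at 12 h below all 8 at 6 h. KIF2C, a microtubule depolymerase gene, and KIF22, a motor gene of chromosome arms, fell in GPI-PLD cells (-0.51 ± 0.12, adjusted p 0.00751, and -0.55 ± 0.14, adjusted p 0.0154). They stood at -0.30 ± 0.12 and -0.19 ± 0.14 in LacZ cells, and the KIF22 call was lost without GPI-PLD 12 h replicate 1 or without GPI-PLD 6 h replicate 3 (giving an adjusted p of 0.0501 to 0.056). A second KIF2C probe set stood at -0.18 ± 0.13 in GPI-PLD and -0.37 ± 0.13 in LacZ cells. A second KIF22 probe set stood at -0.36 ± 0.16 in cells of either virus. Neither of these probe sets was called, so KIF2C and KIF22 are not shown to be lower in GPI-PLD cells alone. KIF14, another cytokinesis motor gene, fell in LacZ cells, with 445, 1008, 633 and 732 at 12 h, against 1309, 1325, 982 and 1768 at 6 h, overlapping through 1 array of each time (-0.90 ± 0.20, adjusted p 0.00622). In GPI-PLD cells KIF14 had 1127, 837, 1059.9 and 779 at 12 h, against 1303, 884, 1309 and 1324 at 6 h (-0.32 ± 0.20, adjusted p 0.363). KIF15, KIF23 and KIF4A were called in neither virus, with differences from -0.53 to -0.08. The GPI-PLD difference of KIF4A passed without GPI-PLD 12 h replicate 3 or without GPI-PLD 6 h replicate 1 (giving an adjusted p of 0.00633 to 0.0401).

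Of the other spindle and cytokinesis genes, 6 of 9 fell in GPI-PLD and 5 in LacZ cells, 4 of them in both. HMMR, a spindle assembly gene, had 1179.9, 1286, 1160.2 and 1589 at 12 h with the GPI-PLD virus, against 1862, 2082, 2556 and 2542 at 6 h. In LacZ cells it had 1830.1, 1333, 1420 and 1559 at 12 h, against 2501, 1748, 1801 and 2328 at 6 h. It fell in GPI-PLD cells without overlap (-0.76 ± 0.14, adjusted p 0.000879) and stood at -0.43 ± 0.14 in LacZ cells (0.0741), where it passed without LacZ 12 h replicate 1 or without LacZ 6 h replicate 2 (giving an adjusted p of 0.0487 to 0.0497). A second HMMR probe set was called in both viruses, at -0.60 ± 0.12 in GPI-PLD cells (adjusted p 0.00288 over all probe sets) and -0.56 ± 0.12 in LacZ cells (0.00702), so that HMMR is not shown to be lower in GPI-PLD cells alone. TACC3, the gene of a protein that crosslinks spindle microtubules, had 879.5, 1546, 978 and 834 at 12 h with the GPI-PLD virus, against 1363, 1526, 1673 and 1457 at 6 h. LacZ arrays of TACC3 read 896, 761, 1063 and 899 at 12 h, against 1379, 1487, 1429.8 and 1839 at 6 h. GPI-PLD replicate 2 at 12 h lay among the 6 h arrays, and the log2 differences were -0.52 ± 0.16 (adjusted p 0.0386) and -0.72 ± 0.16 (0.00502). The GPI-PLD call was lost without GPI-PLD 12 h replicate 1, 3 or 4 or without GPI-PLD 6 h replicate 2, 3 or 4 (giving an adjusted p of 0.0705 to 0.124). DLGAP5, which encodes a stabiliser of spindle fibres at kinetochores, had 1301, 964, 1285 and 1479.8 at 12 h with the GPI-PLD virus, against 1540, 1583, 1704 and 1698 at 6 h. LacZ arrays of DLGAP5 read 1106, 1028, 1034 and 959 at 12 h, against 1655, 1630.4, 1817 and 1961 at 6 h. Neither overlapped, yet the difference passed in LacZ cells (-0.74 ± 0.12, adjusted p 0.000259) and not in GPI-PLD cells (-0.37 ± 0.12, adjusted p 0.0538), except without GPI-PLD 12 h replicate 4 (giving an adjusted p of 0.0248).

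KPNA2, an importin gene whose product carries spindle factors, fell with the smallest errors of the group (-0.44 ± 0.08, adjusted p 0.000384, and -0.48 ± 0.08, adjusted p 0.000144). Its means were 10174 ± 710 in GPI-PLD cells at 12 h and 13834 ± 928 at 6 h, and 10024 ± 657 in LacZ cells at 12 h and 14044 ± 716 at 6 h. The spindle gene NUSAP1 and RACGAP1, of the complex that organises the midzone, fell in both, at -0.42 ± 0.13 and -0.47 ± 0.13 in GPI-PLD cells (adjusted p 0.0466 and 0.0231) and at -0.48 ± 0.13 and -0.44 ± 0.13 in LacZ cells (0.0286 and 0.0448). These calls were lost when single arrays were left out. For NUSAP1 they were lost in GPI-PLD cells without GPI-PLD 12 h replicate 1, 3 or 4 or without GPI-PLD 6 h replicate 1, 2, 3 or 4 or without LacZ 12 h replicate 1, 2, 3 or 4 or without LacZ 6 h replicate 1 or 3 (giving an adjusted p of 0.0508 to 0.159), and in LacZ cells without LacZ 12 h replicate 1, 2 or 3 or without LacZ 6 h replicate 3 or 4 (giving an adjusted p of 0.061 to 0.118). For RACGAP1 they were lost in GPI-PLD cells without GPI-PLD 12 h replicate 4 or without GPI-PLD 6 h replicate 2 or 4 (giving an adjusted p of 0.0566 to 0.0815), and in LacZ cells without GPI-PLD 6 h replicate 1, 2 or 3 or without LacZ 12 h replicate 1, 2 or 3 or without LacZ 6 h replicate 1 or 3 (giving an adjusted p of 0.0526 to 0.139). TPX2, the activator gene of Aurora A, fell in GPI-PLD cells (-0.41 ± 0.10, adjusted p 0.0104) and stood at -0.28 ± 0.10 in LacZ cells, where it passed without LacZ 6 h replicate 4 (giving an adjusted p of 0.0458). The midzone gene PRC1 stood at -0.29 ± 0.11 and -0.36 ± 0.11, and ECT2, the exchange factor gene of the contractile ring, at -0.38 ± 0.20 and -0.08 ± 0.20. PRC1 passed in GPI-PLD cells without GPI-PLD 12 h replicate 3 (giving an adjusted p of 0.0462) and in LacZ cells without GPI-PLD 12 h replicate 3 (giving an adjusted p of 0.0415).

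Of the chromosome structure genes, 3 of 6 fell in GPI-PLD and 2 in LacZ cells. TOP2A, the topoisomerase gene that untangles sister chromatids, had 4227, 5154, 4815 and 4634 at 12 h with the GPI-PLD virus, against 6984, 6984, 6980.4 and 6554 at 6 h. Its LacZ signals were 5105, 5034, 5335 and 4987 at 12 h, against 5991, 6859.8, 6413 and 7349 at 6 h. All 8 arrays at 12 h lay below all 8 at 6 h, at -0.54 ± 0.08 (adjusted p 7.16e-05) and -0.37 ± 0.08 (0.00494). The condensin I genes NCAPD2 and NCAPH fell in GPI-PLD cells (-0.52 ± 0.15, adjusted p 0.0326, and -0.49 ± 0.14, adjusted p 0.0237). NCAPD2 fell in LacZ cells as well, with 787, 908, 1270.1 and 989.7 at 12 h, against 1463, 1606, 2040.3 and 1307 at 6 h (-0.67 ± 0.15, adjusted p 0.00735), whereas NCAPH stood at -0.28 ± 0.14. In GPI-PLD cells NCAPD2 had 921, 1328, 1096 and 1189 at 12 h, against 1418, 1733, 1831 and 1598 at 6 h, without overlap. The GPI-PLD call of NCAPD2 was lost without GPI-PLD 12 h replicate 1 or 3 or without GPI-PLD 6 h replicate 2, 3 or 4 (giving an adjusted p of 0.0628 to 0.116), and that of NCAPH without GPI-PLD 12 h replicate 2 or without GPI-PLD 6 h replicate 1, 3 or 4 (giving an adjusted p of 0.0525 to 0.08).

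SMC2 and SMC4, the core subunit genes of both condensins, were called in neither virus. SMC2 had 1568, 1359.5, 1138 and 1434 at 12 h with the GPI-PLD virus, against 1406, 1594, 1409.9 and 1221 at 6 h. The LacZ arrays of SMC2 gave 1112, 1134, 1189 and 1028 at 12 h, against 1459.5, 1525, 1276 and 1471 at 6 h, without overlap. The log2 differences were -0.04 ± 0.12 and -0.34 ± 0.12 (adjusted p 0.901 and 0.0902) for SMC2, and -0.27 ± 0.12 and -0.25 ± 0.12 for SMC4. MKI67, the Ki-67 gene of the surface of mitotic chromosomes, stood at -0.30 ± 0.14 and -0.14 ± 0.14 (adjusted p 0.174 and 0.65).

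By virus, 19 members fell in both, 13 in GPI-PLD cells alone, 4 in LacZ cells alone (CENPF, CDCA3, KIF14 and DLGAP5) and 24 in neither. These counts do not show a difference between the viruses, which is tested below. Plain eBayes ended the GPI-PLD calls of CDK1, NEK2, MELK, MAD2L1, PTTG1, NUSAP1, TACC3 and NCAPD2 (adjusted p 0.0518 to 0.108) and the LacZ calls of ZWINT, CDCA3, NUSAP1 and RACGAP1 (0.0555 to 0.0872). Without replicates 2 and 4 of GPI-PLD 12 h together, the GPI-PLD calls of NEK2, MELK, MAD2L1, KIF11, TPX2, RACGAP1 and NCAPH ended (0.0559 to 0.18). Members lower in both had a median mean signal of 3180 and a median standard error of 0.12, and those lower in neither 1214 and 0.14. Most other probe sets of the members were negative too: of 32 that passed the filter, of 21 genes, 31 were negative in GPI-PLD and 27 in LacZ cells. In the fit over all probe sets 7 and 4 of them fell, and 0 rose in either. The share of all probe sets that fell in that fit is not given here, so these calls are not set against it.

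Between the viruses no member passed the test. At 12 h the median log2 difference of the members (GPI-PLD minus LacZ) was 0.00, with 30 of 60 negative, and at 6 h it was 0.05, with 22 negative. At both times 0 members and 0% of all genes were called in either direction. At an unadjusted p under 0.05 there were 7 members at 12 h and 5 at 6 h, against 585 and 376 of the 8102 genes. The plain eBayes fit, without trend and robust, called 0 members at either time and 0 and 2 genes in all. The 95% interval lay within 1.5-fold in either direction for 52 of 60 members at 12 h and for 53 at 6 h, and its median reach on either side of the estimate was 1.21-fold at either time.

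The smallest p at 12 h belonged to CENPF. Its signals at 12 h were 1755, 1517, 1356 and 1366 in GPI-PLD cells, against 1051, 1159, 1266 and 1238 in LacZ cells. The viruses did not overlap, and the log2 difference was 0.33 ± 0.12 (95% interval 0.08 to 0.57, adjusted p 0.597). The next were CKS2 at -0.28 ± 0.11, SMC2 at 0.28 ± 0.12, KIF14 at 0.44 ± 0.20, CDC25B at 0.28 ± 0.13 and DLGAP5 at 0.26 ± 0.12, with adjusted p from 0.663 to 0.685. For SMC2 the signals at 12 h were 1568, 1359.5, 1138 and 1434 in GPI-PLD cells, against 1112, 1134, 1189 and 1028 in LacZ cells, with overlap. Besides CENPF, every GPI-PLD array lay above every LacZ array at 12 h in the separase gene ESPL1, and below in CCNA2. These 2 members above and 1 below compare with 2.14% and 1.85% of all genes.

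At 6 h the smallest p belonged to FOXM1. Its signals at 6 h were 894, 1019, 818 and 1218 in GPI-PLD cells, against 642, 875, 646 and 622 in LacZ cells. A single LacZ array reached into the GPI-PLD range, and the log2 difference was 0.47 ± 0.18 (95% interval 0.09 to 0.84, adjusted p 0.996). CDC25B had 1594, 1551, 1689 and 1648 in GPI-PLD cells, against 1355, 1345, 1150 and 1419.9 in LacZ cells, without overlap (0.29 ± 0.13). CDCA8 stood at 0.39 ± 0.16, CDC25C at 0.31 ± 0.15, CDC27 at 0.24 ± 0.11 and KIF22 at 0.25 ± 0.14, and the adjusted p of these 5 was 0.998. CDC25B and KIF22 were the 2 members with every GPI-PLD array above every LacZ array, and 0 lay below, against 1.47% and 1.56% of all genes.

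**Figure D5:**
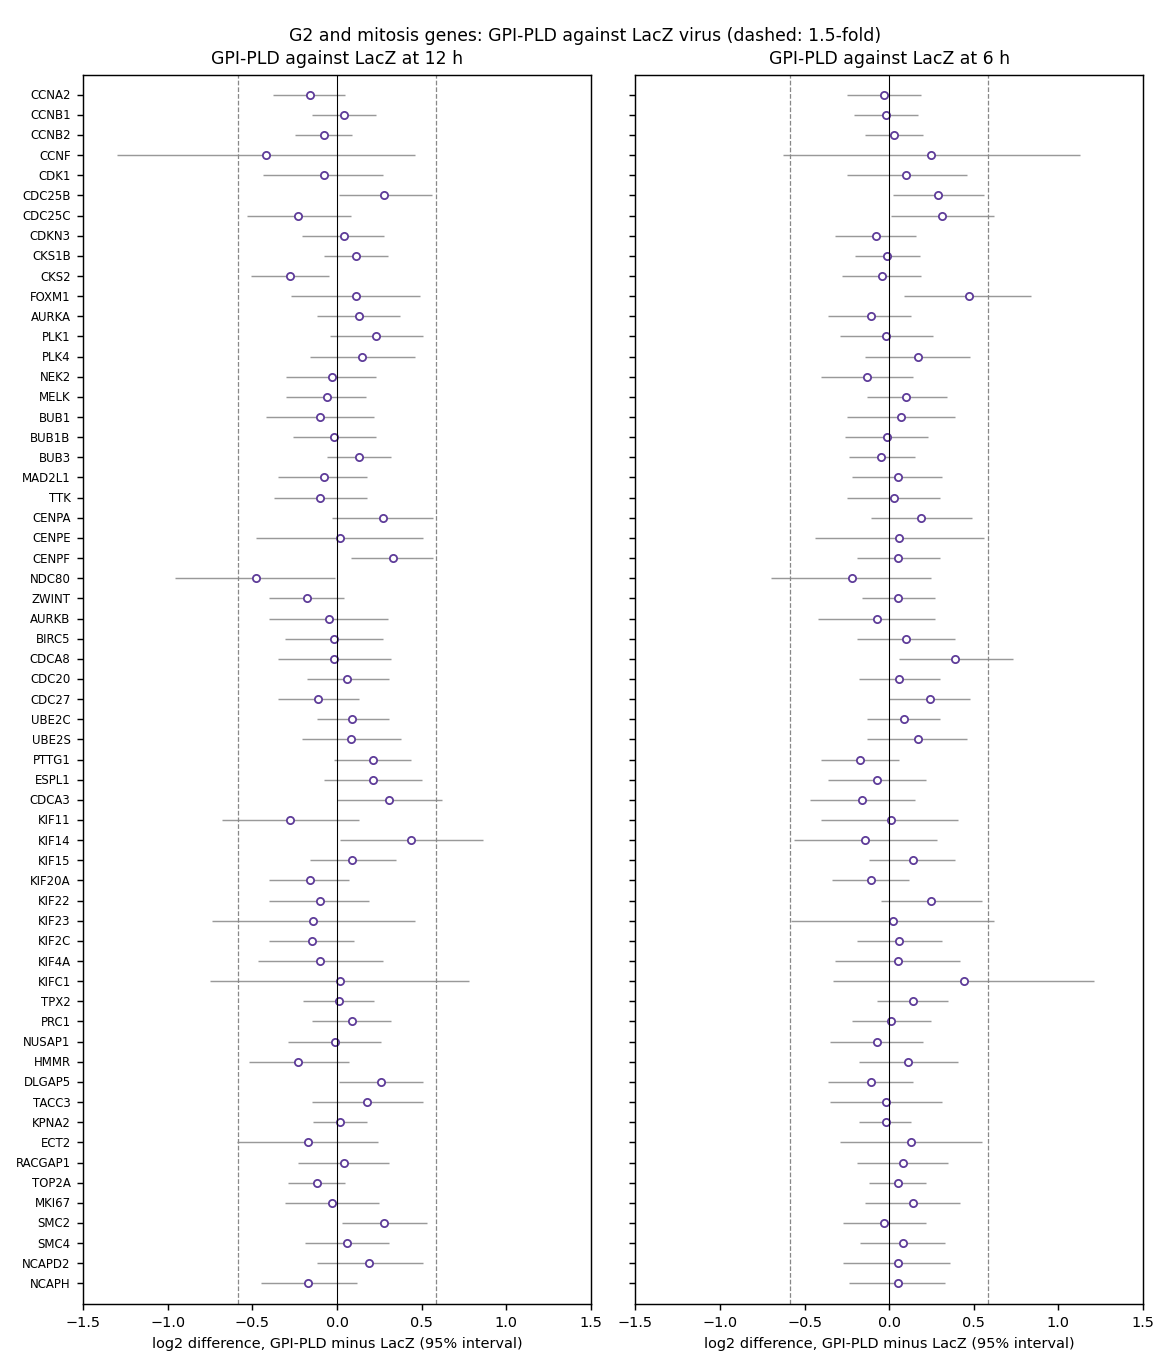
Log2 difference between viruses (GPI-PLD minus LacZ) of each member with its 95% interval, at 12 h (left) and 6 h (right). Dashed lines mark 1.5-fold. None of the points passed the test, and most intervals lie between the dashed lines.

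The fall with time was tested for a difference between the viruses. Of the members 0 were called in either direction, against 0.0123% of all genes lower and 0% higher, and the median difference (GPI-PLD minus LacZ change) was -0.05. At an unadjusted p under 0.05 there were 5 of 60 members, against 610 of the 8102 genes, and the plain eBayes fit called 0 members. The interval of the difference lay within 1.5-fold for 32 of 60 members, so for the others a difference of that size was not excluded by its interval. CDC25C had the smallest p (-0.54 ± 0.21, 95% interval -0.97 to -0.11, adjusted p 0.526). It was followed by PTTG1 (0.38 ± 0.16), CDCA3 (0.47 ± 0.21), CDC27 (-0.35 ± 0.16), DLGAP5 (0.36 ± 0.17) and KIF14 (0.58 ± 0.29), with adjusted p from 0.569 to 0.659.

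Genes of the pathway outside the members were read from lists of known function. Of 36 other mitosis genes tested, 8 fell in GPI-PLD and 6 in LacZ cells, against 5.07% and 3.25% of all genes, and 0 rose, with medians of -0.35 and -0.24. OIP5, a centromere loading gene, fell in both (-0.68 ± 0.14, adjusted p 0.00277, and -0.55 ± 0.14, adjusted p 0.0185), as did the kinesin gene KIF18B (-0.71 ± 0.13, 0.000539, and -0.46 ± 0.13, 0.0262) and TRIP13, which remodels the checkpoint protein MAD2 (-0.48 ± 0.10, 0.00329, and -0.44 ± 0.10, 0.00795). The 31 genes of G1 and S phase had medians of -0.53 in GPI-PLD and -0.32 in LacZ cells, beside -0.43 and -0.37 for the members. Of these 31 genes, 16 fell in GPI-PLD and 14 in LacZ cells, against 5.07% and 3.25% of all genes. Lower in both were 12, against 1.9% of all genes, and 0 rose. Among them were PCNA, the sliding clamp of DNA polymerases, with mean signals of 6688 ± 727 in GPI-PLD cells at 12 h and 11592 ± 2119 at 6 h, and 7501 ± 534 in LacZ cells at 12 h and 11994 ± 1148 at 6 h. Its log2 differences were -0.78 ± 0.11 (adjusted p 3.8e-05) and -0.67 ± 0.11 (0.000249). GINS1 and MCM5, genes of the replicative helicase, stood at -0.86 ± 0.10 and -0.66 ± 0.17 in GPI-PLD and at -0.76 ± 0.10 and -0.64 ± 0.17 in LacZ cells, all called.

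Of 17 genes of G2 arrest and CDK inhibition, 3 rose in GPI-PLD and 2 in LacZ cells, against 4.6% and 3.64% of all genes, and 0 fell, so that 14 and 15 were not called. BTG1, an inhibitor of proliferation, averaged 2628 ± 378 in GPI-PLD cells at 12 h and 1312 ± 133 at 6 h (0.96 ± 0.12, adjusted p 6.94e-06), and 2494 ± 255 in LacZ cells at 12 h and 1228 ± 128 at 6 h (0.99 ± 0.12, adjusted p 5.73e-06). GADD45A, a stress gene whose product binds CDK1, averaged 5033 ± 984 in GPI-PLD cells at 12 h and 2460 ± 630 at 6 h (1.03 ± 0.17, adjusted p 0.000356), and 4613 ± 429 in LacZ cells at 12 h and 2650 ± 689 at 6 h (0.81 ± 0.17, adjusted p 0.00449). Of 17 APC/C and cohesin genes 1 fell in each virus, near the 5.07% and 3.25% of all genes, with medians of -0.14 in GPI-PLD and 0.01 in LacZ cells. Of 16 transcription regulators of the mitotic programme 0 were called in either virus by limma, with 1 and 2 at an unadjusted p under 0.05 and medians near 0. Between the viruses 0 genes of any of these lists were called.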

How the data were processed

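HepG2 RNA was measured on 16 Affymetrix arrays, 4 per group. The deposited table holds 1 linear intensity per probe set and array, made with MAS5 per the submitters' processing notes. The target value and other steps are not given in the sources used here. The labels give no replicate numbers, so arrays were numbered in deposited order, and nothing says that a group's arrays are separate cultures. A p-value here covers only the spread among these arrays, which may be technical.

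Of 22283 probe sets 68 were controls. A gene was read by its brightest probe set (mean log2 signal), among those assigned to 1 symbol. Members had 98 probe sets, 38 members 1 and 22 several. Log2(signal + 62.7), the 20th percentile of all signals, was fitted for genes whose mean reached the 40th percentile (signal 188.1). Limma 3.58.1 (statmod 1.5.0, R 4.3.3) fitted the 4 groups over 16 arrays with eBayes, trend and robust (12 residual degrees of freedom, with a median prior of 10.5). The threshold was an adjusted p of 0.05, by Benjamini and Hochberg's method over all genes of each contrast. A fold is on the scale of signal + 62.7, which understates changes of low genes. The steps were tested on simulated data, with changes set in the LacZ 12 h arrays. Of these changes 52.2% were recovered at 1.5-fold, 83.6% at 2-fold and 90.9% at 3-fold, with 2 calls of unchanged genes. A member that was not called can therefore still have changed. Python 3.11.15 with pandas 2.3.3, scipy 1.17.1 and matplotlib 3.10.9 made tables and plots.

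Members and lists were chosen with earlier results of these data known. Described in full are the 8 members with the largest called change per time contrast, the 6 with the smallest p in each other contrast, and those with the largest and smallest change per role group. From each list the rule took up to 3 genes called in both viruses. Promoter windows came from RefSeq. The number of arrays limits the precision.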

Additional observations from a re-analysis of the deposited data

Results flagged for a closer look

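Groups of 4 arrays were checked for each of 30 members and for the median over all members, which made 124 checks. In 7 of these, each of a named member, a single array lay far from the other 3. By chance about 1 in 20 groups would be marked in this way. KIF14 read 884.2 in GPI-PLD 6 h replicate 2, against 1303 to 1324 in the other arrays of its group. CENPF read 1467.0 in GPI-PLD 6 h replicate 1, against 1922 to 1963. CKS2 read 6279.5 in LacZ 6 h replicate 4, against 7322 to 7537, and FOXM1 read 875.0 in LacZ 6 h replicate 2, against 622 to 647. The remaining 3 belonged to LacZ 12 h replicate 1: KIF22 at 592.9, against 829.9 to 881, CCNF at 36.0, against 273 to 343, and ECT2 at 1494.4, against 939.6 to 955. ECT2 was high and the others low in that array, and the cause was not tested.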

How the results depend on the processing

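Values were recomputed with another normalization (quantile, or the 75th percentile), another pseudocount (none, or 4 times as high), another filter (none, or the 60th percentile), other use of probe sets (their mean, or each alone), other fits (plain eBayes, weighted arrays, arrays of 1 contrast), each array left out, and GPI-PLD 12 h replicates 2 and 4 left out together. Of 359 counts compared, 358 stayed within 1.5 times. Many of these were counts of 0 that stayed at 0, which were taken as unchanged. Members lower in both viruses numbered 12 with eBayes without trend and robust, against 19. With single arrays left out, the lower members numbered 24 to 32 in GPI-PLD cells, 17 to 25 in LacZ cells and 13 to 18 in both, and over all alternatives 24 to 35, 17 to 30 and 12 to 23. The count of members higher with time, and those of members called between the viruses, stayed at 0 in all of these. The split of all genes in LacZ cells was 263 lower and 295 higher, and 390 and 242 with scaling to the 75th percentile. Of 1614 single values, 1562 kept direction and call, 32 lost a call, 12 gained one and 8 turned. Those that turned belonged to members near 0: in GPI-PLD cells BUB3 (0.07) stood at -0.18 with its probe sets averaged, -0.11 without replicates 2 and 4 of GPI-PLD 12 h and -0.01 to 0.17 with single arrays left out, AURKB at -0.20 to 0.02 and SMC2 at -0.10 to 0.05. In LacZ cells ECT2 stood at -0.29 to 0.07. The cause was not tested. Calls that held in every gene-level alternative numbered 17 of 32 in GPI-PLD and 16 of 23 in LacZ cells. No paired analysis was possible because the labels give no replicate numbers.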
